A study of Mus musculus with 16 samples.

Results

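Hearts of mice labelled T2R1 were compared with control hearts in a mouse model of posttraumatic stress disorder in which a subordinate mouse meets an aggressor. All samples titled as 2 days of stress with 1 day of rest (4 hearts) and all samples titled as control (4 hearts) were taken, which is 8 of the 16 samples of the series. Both groups were C57BL/6 mice, 1 whole heart per array, with RNA extracted by TRIzol. T2R1 mice were held in a mesh box inside the cage of an aggressor and were attacked repeatedly, and then rested for 1 day. Control mice were held in the same kind of box in a cage with no aggressor, and they carry the label of the same 2-day, 1-day-rest schedule. T2R1 is thus the exposure whose labelled length matches that of the controls. The remaining groups, T1R1 and T3R1 (4 hearts each), were exposed for 1 or 3 days with the same rest. They are given as further levels beside T2R1, and they also entered the choice of probes and the fit. T1R1 was in addition tested against T2R1. A common treatment text names exposures of 5 or 10 days, and the group names were followed. It also places the stress sessions at varying times of day, and the labels used here give neither the hour of dissection nor the age or sex of the mice.

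A threat to an animal acts on the heart by several routes. Sympathetic nerves and the adrenal medulla release catecholamines, the adrenal cortex releases corticosterone, and blood cells are mobilised from marrow and spleen. Corticosterone enters heart cells and binds the glucocorticoid receptor, which acts on genes such as Fkbp5, Tsc22d3, Zbtb16, Per1 and the metallothioneins. Heart muscle also holds a circadian clock, in which Arntl (BMAL1) and its partners drive the Per, Cry, Nr1d1 and Dbp genes through the E-box motif, and the products of these genes feed back on Arntl and on each other.

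Of the 59305 spots on an array, control spots aside, between 55.0% and 66.9% were well above background on the 8 arrays. Values below are log2 signals relative to the 75th percentile of the same array, so 0 is the brightness below which 75% of the spots lie, and signals of different probes are not compared. The 75th percentile lay at 550.7 scanner units on control replicate 1, from 257.6 to 273.1 on the other 3 control arrays and from 285.5 to 349.5 on the T2R1 arrays. Control replicate 1 stood apart from its group: its mean correlation was 0.9695 with the other control arrays and 0.9878 with the T3R1 arrays. Counts are therefore also given without it. Control and T3R1 arrays lay on one slide and T1R1 and T2R1 arrays on the other, each slide with its own scan, so that slide and exposure cannot be told apart in T2R1 against control. Of the markers that define the labelled tissue, all 18 adult sarcomere genes listed were well above background on all 8 arrays. Nothing in the labels says more of the replicates than that they were separate hearts, and 4 arrays a group limit the precision of each value.

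T2R1 hearts differed from control hearts at 4166 of the 22631 features tested with limma at an adjusted p under 0.05, which is 18.4%. Of these, 3355 (14.8%) were higher in T2R1 and 811 (3.58%) were lower, where a feature is the brightest probe of a gene, a long noncoding RNA region or an unnamed transcript. Among the called features the median size of the difference was 0.80 on the log2 scale, with a 10th percentile of 0.38 and a 90th of 1.31. A difference beyond 1 on the log2 scale was seen for 1228 features called higher and 46 called lower. The arrays of the groups did not overlap at 5542 features (24.5%), of which 3756 were also called (16.6% of all features). Without control replicate 1 there were 5515 calls (24.4%), 3392 higher and 2123 lower, and 3537 of the 4166 features were called again in the same direction. Counts in the gene lists below are to be read beside these shares of all features.

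The balance of higher and lower calls moved with the scaling. It was 1850 higher and 1187 lower after quantile normalization, 1764 and 833 after normexp background correction, and 2153 and 1634 with the authors' values. Array weights, which gave control replicate 1 a weight of 0.14, led to 5216 higher and 3564 lower. Scaling by the median of each array gave 1385 higher and 7717 lower, because it set the median of all features at -0.37 on the log2 scale in place of 0.02. In what follows the direction of a list is given relative to the median of all features where this scaling is concerned. Sizes at dim probes also moved, many being over 1.5 times smaller after normexp or with the authors' values, and these values are given beside the genes described in most detail. Median scaling lowered each difference by about the same amount, and is named where it ended a call.

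The calls followed the brightness of the probe. With the features split into 4 equal bins by brightness, 28.4% of the dimmest bin were called higher and 1.52% lower, and the median difference was 0.46. In the second bin 22.8% were higher and 4.31% lower, and in the third 6.52% were higher and 5.85% lower. In the brightest bin 1.52% were higher and 2.65% lower, with a median of -0.02. Higher calls were thus mostly among dim probes, and among the brighter features lower calls were about as frequent or more so. A dim probe that passed the filter only through T2R1 had to be higher there, so the dim bins are not free of the filter. Among the 17945 features well above background on all arrays, 2183 were higher and 750 lower. The probes also differed in base composition: median GC content was 45.0% for features called higher, 38.3% for those called lower and 43.3% for the rest, and within each bin of brightness the higher calls had the higher GC. The part of probe brightness and base composition in the differences was not tested.

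**Figure D1:**
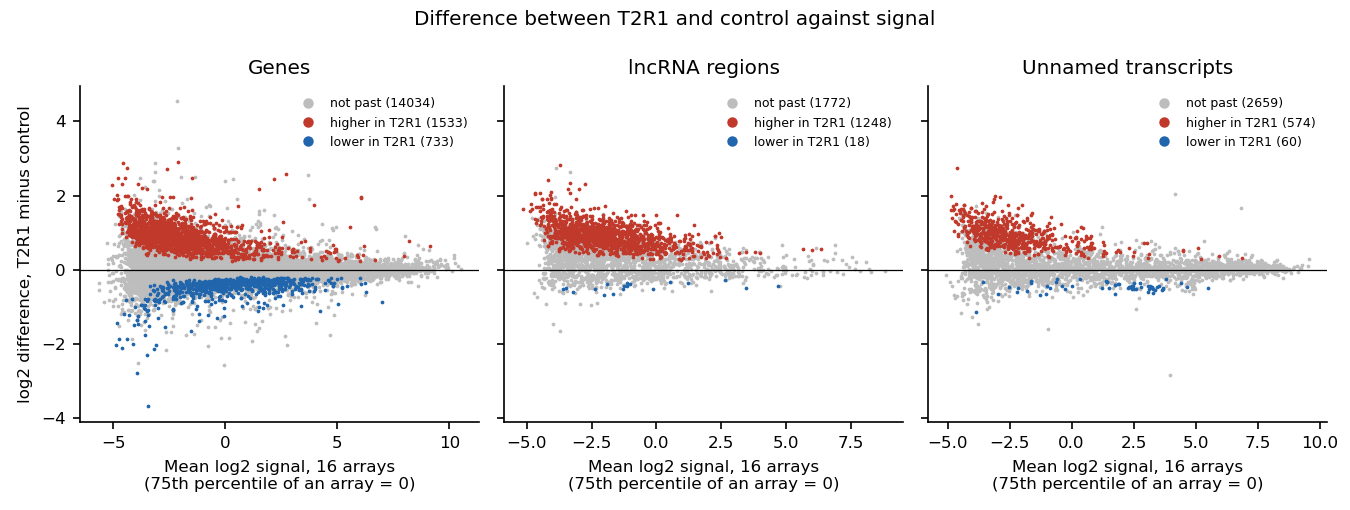
Difference between T2R1 and control (log2, vertical axis) against the mean log2 signal of all arrays relative to the 75th percentile (horizontal axis), 1 point per feature, coloured by call. Features called higher lie mostly at the dim end, where the median difference of the lowest bin was 0.46, and the median of the brightest bin was -0.02.

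Within the slide that T2R1 shared with T1R1, limma called 0 features between the exposures (0%), with 1772 features at an unadjusted p under 0.05 and a smallest adjusted p of 0.342. Under the alternative settings this smallest adjusted p ranged from 0.126 to 0.935, with 0 calls under each. A smallest p above the threshold does not show that both exposures acted alike.

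Long noncoding RNAs are transcripts without a long reading frame, and the array carries probes for many regions defined only by their position. Of the 3038 such regions tested, 1248 were higher in T2R1 and 18 lower, or 41.7% called against 13.9% of the genes, where 1533 were higher and 733 lower. Unnamed transcripts gave 574 higher and 60 lower. The median difference of the noncoding regions was 0.56, while the same regions had a median of 0.37 in T1R1 and -0.12 in T3R1 against the same control arrays, and of 0.14 in T2R1 against T1R1. The gap to genes was present within each bin of brightness: from the dimmest to the brightest 41.0%, 50%, 33.0% and 8.33% of noncoding regions were called higher, against 22.8%, 14.4%, 3.68% and 1.29% of genes. The split was 746 higher and 60 lower after quantile normalization, 704 and 15 after normexp, 809 and 80 with the authors' values, and 538 and 311 with median scaling. The median of the regions stood above that of all features in each of these, at 0.17 against -0.37 with median scaling, and was 0.45 without control replicate 1. A region that passed the filter on dim probes only through T2R1 had to be higher there. With only probes well above background on all arrays, 877 regions were higher and 16 lower, with a median of 0.48.

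**Figure D2:**
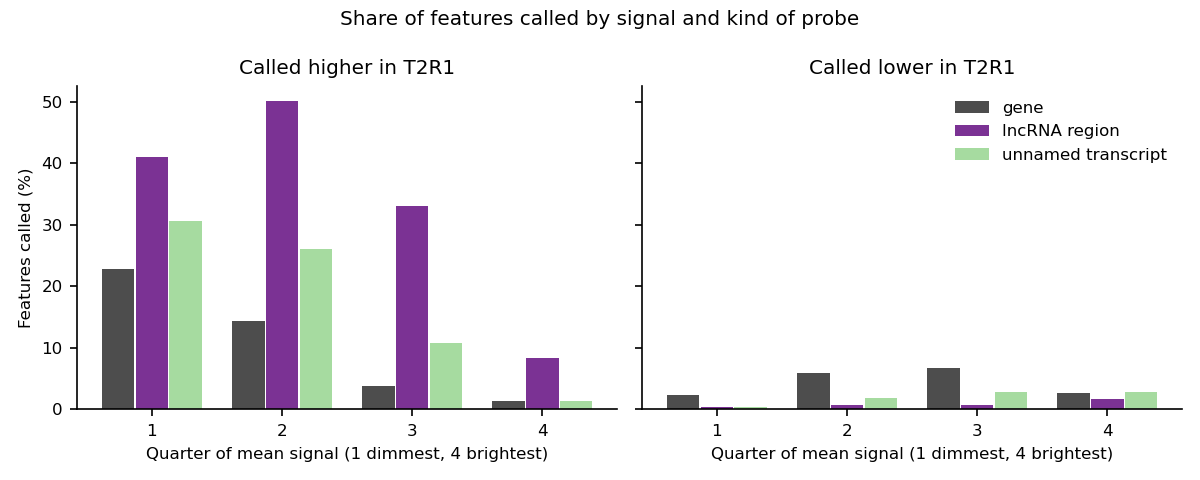
Percent of features called higher or lower in T2R1 (vertical axis) in each bin of brightness (horizontal axis), for genes, long noncoding RNA regions and unnamed transcripts. In the second bin 50% of noncoding regions and 14.4% of genes were called higher.

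Probes of noncoding regions among the 4 highest, and of the lowest, are shown so that the transcripts can be identified, as the array's 60-base probes, 5′ to 3′, all in lower case, with positions on mm9, the build of the array design. The first 3 were higher in T2R1 and the last was lower.
chr13:62771793-62771852: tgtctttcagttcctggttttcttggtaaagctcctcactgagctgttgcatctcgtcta
chr15:99783084-99783143: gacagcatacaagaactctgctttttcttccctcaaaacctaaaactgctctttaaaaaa
chr3:52207229-52207288: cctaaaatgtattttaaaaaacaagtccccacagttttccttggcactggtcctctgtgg
chr11:16835674-16835733: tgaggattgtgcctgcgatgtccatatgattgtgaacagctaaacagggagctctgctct

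The chromosome 13 probe read -3.42, -2.53, -3.0 and -3.17 on control replicates 1 to 4 and -1.43, -1.38, -1.29 and -1.36 on T2R1 replicates 1 to 4. The groups lay far apart, with a difference of 1.67 ± 0.16 (SE, limma adjusted p = 0.000125). The nearest other gene probe on the array design was that of Gm5665, 66211 bases away. The chromosome 15 probe read -3.57, -2.96, -2.89 and -3.69 in control and -1.95, -1.73, -1.27 and -1.60 in T2R1, a difference of 1.64 ± 0.21 (limma adjusted p = 0.000356), and the nearest gene probe was that of Fam186a. For the chromosome 3 probe the values were -3.64, -3.36, -3.81 and -3.91 in control and -2.33, -2.08, -1.95 and -1.92 in T2R1, a difference of 1.61 ± 0.17 (limma adjusted p = 0.000172), and the nearest gene probe was that of Foxo1, 53940 bases away. In all 3 regions each T2R1 array was above each control array, and the calls held without any array in turn and under the 4 other scalings. After normexp and with the authors' values the differences were 0.90 and 0.89 on chromosome 13, 0.78 and 0.74 on chromosome 15, and 0.63 and 0.57 on chromosome 3. A region of chromosome 18 (chr18:36472370-36472659), whose probe is not shown, stood second among the 4 highest at 1.66 ± 0.23 (limma adjusted p = 0.000492), with 0.89 and 0.87 under those settings, and its call held likewise.

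The chromosome 11 probe lies 49 bases from a probe of Eldr, a noncoding RNA gene beside Egfr. It read -1.47, -1.45, -1.58 and -1.76 in control and -2.26, -2.18, -2.27 and -2.29 in T2R1. The T2R1 arrays were lower without overlap, by -0.69 ± 0.16 on the log2 scale (limma adjusted p = 0.00849). After normexp the difference was -0.28 and did not pass.

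Clock genes changed in both directions. Of 15 core clock genes tested 3 were higher and 4 lower, or 7 of 15 against 18.4% of all features, and of 9 clock output factors 2 were higher and 0 lower. Promoter stretches are shown for 4 called genes of the core loop whose window around a RefSeq gene start, on GRCm38.p6, holds a clock motif, read 5′ to 3′ on the gene's strand with the motif in capitals. The motifs searched on both strands were the E-box CACGTG, the D-box TTANGTAA and the RORE (AA, any base, then TAGGTCA), none of which overlapped another.
Ciart, chr3:95882179-95882478, minus strand: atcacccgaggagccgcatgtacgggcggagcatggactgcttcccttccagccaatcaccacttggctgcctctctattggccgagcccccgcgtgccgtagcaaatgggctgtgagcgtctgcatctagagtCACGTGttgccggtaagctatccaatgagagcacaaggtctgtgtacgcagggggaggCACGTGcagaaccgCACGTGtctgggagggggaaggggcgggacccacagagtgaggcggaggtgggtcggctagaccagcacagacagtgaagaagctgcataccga
Per1, chr11:69098699-69098998, plus strand: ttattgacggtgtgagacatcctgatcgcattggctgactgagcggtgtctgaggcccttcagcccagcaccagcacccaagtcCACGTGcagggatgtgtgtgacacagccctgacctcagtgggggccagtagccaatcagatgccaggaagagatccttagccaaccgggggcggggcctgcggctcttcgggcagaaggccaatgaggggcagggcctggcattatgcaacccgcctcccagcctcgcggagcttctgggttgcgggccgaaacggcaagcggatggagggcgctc
Cry1, chr10:85185005-85185304, minus strand: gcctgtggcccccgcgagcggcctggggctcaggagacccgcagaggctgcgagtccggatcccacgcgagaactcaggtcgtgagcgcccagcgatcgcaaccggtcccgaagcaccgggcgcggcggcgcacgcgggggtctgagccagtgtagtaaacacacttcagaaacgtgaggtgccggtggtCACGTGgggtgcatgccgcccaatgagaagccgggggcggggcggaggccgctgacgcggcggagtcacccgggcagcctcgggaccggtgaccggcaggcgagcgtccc
Arntl, chr7:113207261-113207560, plus strand: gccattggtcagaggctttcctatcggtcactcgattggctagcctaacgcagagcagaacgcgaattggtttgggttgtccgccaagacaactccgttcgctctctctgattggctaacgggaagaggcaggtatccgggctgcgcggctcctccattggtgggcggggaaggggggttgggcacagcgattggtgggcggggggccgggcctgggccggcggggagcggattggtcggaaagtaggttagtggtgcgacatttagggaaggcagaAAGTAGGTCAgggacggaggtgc

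Ciart holds 3 E-boxes in this window, Per1 and Cry1 hold 1 each, and Arntl holds 1 RORE just after its start. Another window of Per1 and another of Arntl hold none of the motifs, nor do the windows of Nr1d1 and Dbp. Of the other clock and output genes searched, Per3 holds 2 D-boxes, Bhlhe41 1 E-box, Klf15 3 E-boxes and Tef 1 E-box in each of 2 windows. Across 32851 promoter windows of the same length in the RefSeq table, 7.15% held an E-box, 2.32% a D-box and 0.219% a RORE. The same letters occur in windows of genes that rose and of genes that fell here, and a match is a description of the window only.

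Arntl, the partner of CLOCK that drives the E-box genes, fell. Its probe (chr7:120457261-120457320, mm9) read -0.96, -1.5, -0.40 and -0.15 in control and -2.15, -2.30, -2.58 and -2.56 in T2R1. Every T2R1 array was below every control array, with a difference of -1.65 ± 0.27 (limma adjusted p = 0.00104). The mean was -1.92 in T1R1, on the slide of T2R1, and -1.08 in T3R1, on the slide of the controls. That of T3R1 lay within the range of the control arrays. After normexp the difference of T2R1 was -1.08 and still passed.

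Ciart, a repressor of the CLOCK and BMAL1 pair that is itself clock-driven, showed the largest rise in the clock lists. Control arrays read -3.83, -3.91, -4.51 and -4.13 and T2R1 arrays read -0.71, -1.41, -1.26 and -2.16. T2R1 was 6.55-fold higher, a log2 difference of 2.71 ± 0.39 (limma adjusted p = 0.00055), and the highest control array was well below the lowest T2R1 array. The probe was well above background on 3 of 4 control arrays, and the difference was 1.27 after normexp and 1.46 with the authors' values.

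Dbp, a D-box activator under direct E-box control, read 4.93, 5.42, 5.12 and 4.69 in control and 6.39, 6.18, 6.31 and 5.93 in T2R1. Its 2.23-fold rise (log2 1.16 ± 0.16, limma adjusted p = 0.000507) came without overlap. Nr1d1 (REV-ERB alpha), the repressor that acts on Arntl, read -0.64, 0.18, 0.17 and -0.06 in control and 1.57, 1.01, 0.82 and 0.89 in T2R1, a difference of 1.16 ± 0.30 (limma adjusted p = 0.0153). With median scaling the difference of Nr1d1 was 0.78 and did not pass, while Arntl, Ciart and Dbp passed in each alternative.

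Per1, a repressor of the clock that glucocorticoids also induce, rose on 3 of the 4 T2R1 arrays. It read 3.00, 3.50, 2.97 and 3.57 in control and 4.18, 4.42, 4.15 and 3.36 in T2R1, so replicate 4 lay within the control range. The difference was 0.76 ± 0.22 (limma adjusted p = 0.0249). It ranged from 0.63 to 0.72 and did not pass without control replicate 1 or 3 or without T2R1 replicate 1, 2 or 3, nor with median scaling (0.38).

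Cry1, which represses the E-box pair, fell. It read -2.89, -2.44, -2.47 and -2.45 in control and -3.2, -3.15, -3.32 and -3.33 in T2R1, lower on each T2R1 array by -0.69 ± 0.15 on average (limma adjusted p = 0.00672). After normexp its difference was -0.25 and did not pass.

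Among the clock outputs Bhlhe41, an E-box repressor, rose by 0.57 ± 0.14 (limma adjusted p = 0.0113), but did not pass after quantile normalization (0.38), with the authors' values (0.23) or with median scaling (0.18). Klf15, a clock-driven and glucocorticoid-induced regulator of heart metabolism, was at -0.77 ± 0.27 (limma adjusted p = 0.0664).

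**Figure D3:**
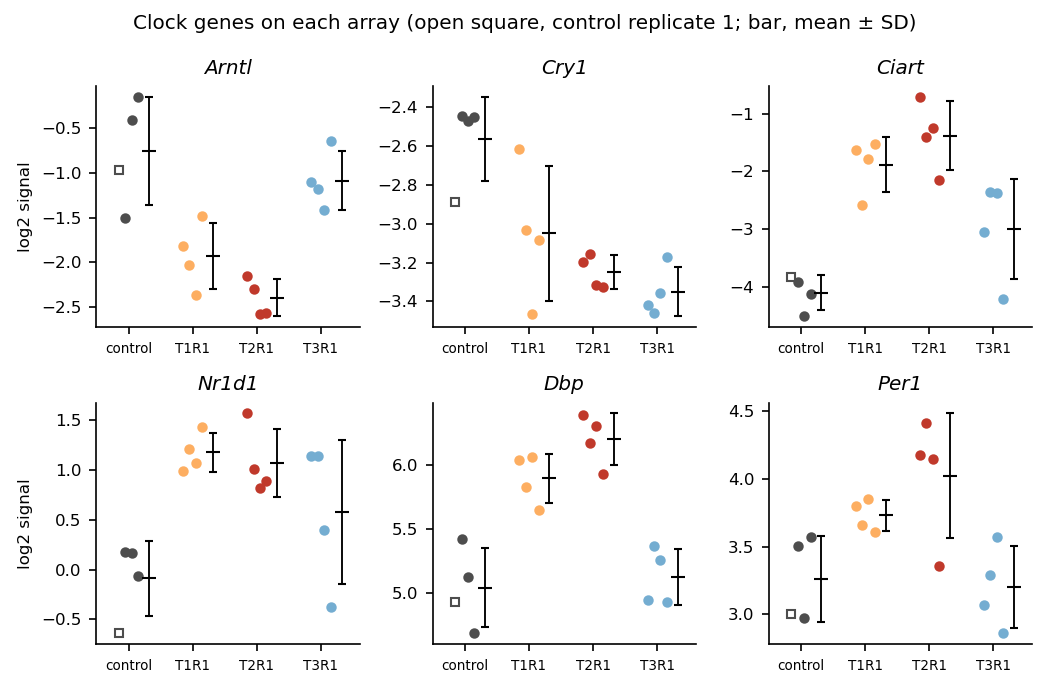
Log2 signal relative to the 75th percentile of each array (vertical axis) of 6 clock genes in control, T1R1, T2R1 and T3R1 hearts, with 1 point per array, bars for mean ± SD and an open square for control replicate 1. Arntl and Cry1 lie lower and Ciart, Nr1d1 and Dbp higher in T2R1 than in control, and Per1 of T2R1 replicate 4 lies within the control range.

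Genes induced by glucocorticoids were called at about the rate of all features. Of 26 tested, 5 were higher and 1 lower (23.1%, against 18.4% of all features), and their median difference was 0.02, the same as that of all features. Fkbp5, the co-chaperone of the receptor and its usual reporter, was at -0.12 ± 0.15 (limma adjusted p = 0.651), and Tsc22d3 (GILZ), an anti-inflammatory target, was at -0.04 ± 0.18 (limma adjusted p = 0.913). Pdk4, the kinase that restrains glucose oxidation, was at -0.30 ± 0.41 (limma adjusted p = 0.681).

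Within this list the metallothioneins, which bind zinc and copper, rose. Mt1 read 7.88, 7.73, 7.86 and 8.15 in control and 8.59, 8.86, 8.56 and 8.69 in T2R1, without overlap and higher by 0.77 ± 0.19 (limma adjusted p = 0.0126), though not past the threshold with median scaling (0.38). Mt2 read 6.25, 3.76, 4.64 and 5.20 in control and 6.70, 7.50, 6.29 and 7.22 in T2R1, a difference of 1.97 ± 0.64 (limma adjusted p = 0.0468). The control hearts spread widely for Mt2, and leaving out any array but control replicate 1 ended its call, at 1.57 to 2.18, as did normexp (1.98), quantile normalization (1.94) and median scaling (1.58). Tat, tyrosine aminotransferase, a liver gene classically induced by glucocorticoids, read -1.82, -1.59, -2.02 and -2.04 in control and -0.60, -1.05, -0.55 and -0.71 in T2R1, with a difference of 1.14 ± 0.24 (limma adjusted p = 0.00461) that held without each array in turn.

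Lcn2, an iron-sequestering protein of neutrophils and the acute phase, read 3.29 on control replicate 1 and 0.21, -0.01 and -0.04 on the other 3 control arrays. The T2R1 arrays read 3.32, 3.68, 3.13 and 3.61, so control replicate 1 fell among them. The difference was 2.57 ± 0.71 (limma adjusted p = 0.0208) and 3.38 without control replicate 1, while leaving out control replicate 2, 3 or 4 or T2R1 replicate 4 ended the call at 2.27 to 2.51. Zbtb16 (PLZF), a transcription factor that glucocorticoids induce, was lower: it read 2.89, 2.58, 3.22 and 3.70 in control and 2.50, 1.96, 2.06 and 2.06 in T2R1. Its difference of -0.96 ± 0.28 (limma adjusted p = 0.0269) was lost without control replicate 3 or 4 or T2R1 replicate 2, 3 or 4, at -0.93 to -0.75, and after quantile normalization (-0.90).

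Crhbp, the secreted protein that binds corticotropin-releasing hormone, was among the genes with the highest differences. It read -3.81, -3.09, -3.36 and -3.2 in control and -2.01, -1.95, -1.53 and -1.68 in T2R1. The control readings lay within the range of the dimmest bin, where 28.4% of features were called higher and the median difference was 0.46. All T2R1 arrays were above all control arrays, 2.97-fold on average (log2 1.57 ± 0.31, limma adjusted p = 0.00366), with 0.70 after normexp and 0.64 with the authors' values.

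Markers of neutrophils were higher. Of 12 tested, 7 rose and 0 fell (58.3%, against 18.4% of all features), with a median of 1.10 (1.04 without control replicate 1) against 0.02 over all features. Their summed linear signal, relative to the 75th percentile of the array, ranged from 39.1 to 45.8 over the control arrays and from 48.1 to 81.5 over the T2R1 arrays. Relative to control replicates 2 to 4 their median level was 1.05, 1.08, 0.96 and 1.09 on T2R1 replicates 1 to 4. It was 0.24, 0.80, 0.54 and 1.04 in T1R1, on the slide of T2R1. In T3R1, on the slide of the controls, it was -0.45, 0.50, -0.01 and -0.03, and on the control arrays 0.08, -0.30, -0.09 and 0.40. Of the 20 markers listed, 8 did not pass the filter on dim probes, among them the granule genes Mpo, Ltf and Ngp. Of the 12 tested, 10 were well above background on all control arrays and 12 on all T2R1 arrays. A marker kept only through T2R1 had to be higher there, so the count may be partly set by the filter. As whole hearts were measured, more cells of a type and more RNA per cell cannot be told apart.

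S100a9, a subunit of the calcium-binding protein calprotectin that fills the neutrophil cytosol, read 1.97, -0.27, 0.70 and 2.22 in control and 4.32, 4.90, 2.54 and 2.70 in T2R1. T2R1 replicates 1 and 2 were highest and the groups did not overlap, with a difference of 2.46 ± 0.81 (limma adjusted p = 0.048). Without control replicate 2 or 3 or T2R1 replicate 1, 2 or 4 it did not pass, at 1.99 to 2.76, nor after normexp (2.31) or quantile normalization (2.46). Its partner S100a8 was at 2.44 ± 0.82 (limma adjusted p = 0.0517).

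Stfa3, a cysteine protease inhibitor of the stefin A family, was higher on every T2R1 array than on any control array. It read -2.76, -2.01, -1.87 and -1.93 in control and -0.86, -1.08, -0.73 and -0.52 in T2R1, a difference of 1.34 ± 0.25 (limma adjusted p = 0.00255) that held without each array and was 0.84 after normexp and 0.80 with the authors' values. Stfa2l1 was called higher (limma adjusted p = 0.00998), but its size is uncertain because only 1 control array of 4 was well above background: the log2 difference was 2.88 here, 0.63 after normexp, 0.75 with the authors' values and 2.50 after quantile normalization, where it did not pass. Stfa2 rose by 1.00 ± 0.24 (limma adjusted p = 0.011), with 0.63 after normexp and 0.59 with the authors' values, and did not pass after quantile normalization (0.74) or median scaling (0.62). Stefin A genes are near-identical copies, so their probes may share transcripts. Retnlg, a resistin-like protein of neutrophils that was named after its value was seen, rose by 2.91 ± 0.81 (limma adjusted p = 0.0228), a call lost without control replicate 2 or 3 or T2R1 replicate 1 or 2, at 2.31 to 2.83; it was 1.78 after normexp and 1.93 with the authors' values.

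Of 24 acute phase genes 3 were higher and 1 lower, a share of 16.7% that is near the 18.4% of all features. Besides Lcn2 these were Serpina3n, a serine protease inhibitor, at 2.18 ± 0.69 (limma adjusted p = 0.0419), and Lrg1, a secreted glycoprotein, at 0.68 ± 0.22 (limma adjusted p = 0.0448). Serpina3n passed without control replicate 1 or T2R1 replicate 3 and with no other array left out, where it was 1.85 to 2.26, and Lrg1 without these or T2R1 replicate 1, and otherwise was 0.50 to 0.72 and did not pass. Neither passed after normexp (1.81 and 0.68) or quantile normalization (2.16 and 0.69), nor Lrg1 with median scaling (0.29). Of 18 macrophage and monocyte markers 1 was higher and 0 lower, 6 had a difference above 0, and the median was -0.13. The called one was Itgam (CD11b), which neutrophils also carry, at 0.47 ± 0.11 (limma adjusted p = 0.0119), and it did not pass with median scaling (0.081).

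Of 15 T and NK cell markers 3 were higher and 0 lower, a share of 20% that is near the 18.4% of all features. Cd247, the signalling zeta chain of T cell receptors, read -3.36, -4.04, -3.64 and -3.46 in control and -2.53, -2.76, -2.57 and -2.23 in T2R1. The arrays did not overlap, and the difference was 1.10 ± 0.16 (limma adjusted p = 0.000596), kept without each array in turn and at 0.48 after normexp and 0.45 with the authors' values. Prf1, the pore-forming protein of cytotoxic cells, rose by 0.73 ± 0.17 (limma adjusted p = 0.0078), but did not pass after quantile normalization (0.53), with the authors' values (0.37) or with median scaling (0.34), and was 0.41 after normexp. Cd3e rose by 0.63 ± 0.19 (limma adjusted p = 0.0322), and passed without control replicate 2 or 4 but not without any other array, at 0.51 to 0.67, nor after normexp (0.50) or with median scaling (0.25). The B cell list had 0 calls of 8 by limma.

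Ccr8, a chemokine receptor of regulatory T cells and other leukocytes, read -3.53, -2.44, -2.05 and -1.68 in control and -0.91, -1.02, -0.80 and -0.64 in T2R1. It was 2.99-fold higher (log2 1.58 ± 0.30, limma adjusted p = 0.00244), and the lowest T2R1 array stood above the highest control array. After normexp its log2 difference was 1.05.

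Some interferon-inducible genes were lower. In the list of interferon-inducible GTPases and antigen processing 0 of 25 were higher, 6 lower and 19 not called, or 24% against 18.4% of all features (3.58% lower), with a median of -0.33, and without control replicate 1 the counts were 1 and 6. These GTPases defend cells against intracellular microbes. Gbp7 read -0.33, -0.50, -0.17 and -0.10 in control and -0.83, -1.21, -1.0 and -0.87 in T2R1, lower on every array by -0.70 ± 0.14 on average (limma adjusted p = 0.0044). Gbp3 read 1.82, 1.19, 1.49 and 1.29 in control and 0.97, 0.41, 0.79 and 0.63 in T2R1, a difference of -0.75 ± 0.16 (limma adjusted p = 0.00642), also without overlap. Gbp4 fell by -0.73 ± 0.17 (limma adjusted p = 0.00897) and Iigp1, an immunity-related GTPase, by -0.67 ± 0.15 (limma adjusted p = 0.00724). These 4 calls held without each array in turn and under the 4 scalings.

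Of 30 type I interferon-induced genes 28 were not called (6.67% called), 0 were higher and 2 lower: Ifit3, which binds viral RNA, at -0.64 ± 0.19 (limma adjusted p = 0.0313), and Cmpk2, a mitochondrial nucleotide kinase, at -0.63 ± 0.20 (limma adjusted p = 0.0414). Without single arrays Ifit3 passed only for control replicate 2 or 4 or T2R1 replicate 4 (otherwise -0.67 to -0.49), and Cmpk2 only for control replicate 1 or T2R1 replicate 1 (otherwise -0.67 to -0.52). Ifit3 did not pass after quantile normalization (-0.59) nor Cmpk2 after normexp (-0.41). Genes of MHC class II presentation, carried by dendritic cells, B cells and macrophages, had a median of -0.64, and 3 of 11 were lower. That is 27.3% called, against 18.4% of all features (3.58% lower). H2-Aa, the alpha chain of I-A, read 2.73, 1.31, 1.89 and 2.01 in control and 0.99, 0.82, 0.97 and 0.75 in T2R1, lower by -1.10 ± 0.29 on average (limma adjusted p = 0.0169). Control replicate 1 was the highest of the 8 arrays. The invariant chain Cd74 (-0.98 ± 0.30, limma adjusted p = 0.0342) and the beta chain H2-Ab1 (-0.92 ± 0.30, limma adjusted p = 0.0482) were lost when any array but control replicate 2 was left out, at -0.99 to -0.75 and -1.0 to -0.67, and after normexp, after quantile normalization and with the authors' values, at -0.95 to -0.89 and -0.94 to -0.90. Without control replicate 1, 1 of the 11 genes was lower and the median was -0.33.

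Cd207 (langerin), a lectin of Langerhans cells and some dendritic cells, read -1.15, -0.39, -0.81 and -0.45 in control and -1.79, -2.78, -1.73 and -1.29 in T2R1. Each T2R1 array was lower than each control array, with a difference of -1.20 ± 0.33 (limma adjusted p = 0.0201). It did not pass without control replicate 2 or 4 or T2R1 replicate 2, at -1.12 to -0.91, and was -0.76 after normexp.

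Most genes of the muscle cell itself were not called. Of 18 adult sarcomere genes 1 was higher and 0 lower, and of 20 fetal and stress genes of heart muscle 2 were higher and 0 lower. Nppa, the atrial natriuretic peptide, was at 0.11 ± 0.16 (limma adjusted p = 0.691) and Nppb, the B-type peptide, at 1.15 ± 0.49 (limma adjusted p = 0.122). Myh6, the adult alpha myosin heavy chain, was at 0.27 ± 0.32 (limma adjusted p = 0.616).

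Myh7, the beta myosin heavy chain of fetal and stressed heart, rose. It read 6.73 on control replicate 1 and 4.84, 4.43 and 4.38 on the other 3 control arrays, against 7.30, 6.84, 6.83 and 7.15 in T2R1. Control replicate 1 stood just below the lowest T2R1 array. The difference was 1.93 ± 0.60 (limma adjusted p = 0.0385) and 2.48 without control replicate 1. Leaving out any of the other 7 arrays ended the call, at 1.69 to 2.00, as did quantile normalization (1.90).

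Mybpc2, the fast skeletal isoform of myosin-binding protein C, read 2.12, 1.65, 1.75 and 1.77 in control and 2.86, 3.36, 2.92 and 3.29 in T2R1. The groups were well apart, with a difference of 1.29 ± 0.25 (limma adjusted p = 0.0029) that held without each array. Markers of skeletal muscle, tested as another tissue that a dissection could hold, gave 2 higher of 8 tested, Mybpc2 itself and Mybpc1, and a median of 0.65. Relative to control replicates 2 to 4 the median level of these markers was 0.87, 0.50, 0.91 and 0.34 on T2R1 replicates 1 to 4, and their summed linear signal ranged from 161.4 to 242.3 over control and from 233.0 to 309.5 over T2R1 arrays. The fast myosins Myh1, Myh2 and Myh4, with Mylpf and Actn3, did not pass the filter on dim probes. The part of skeletal muscle in these results was not tested. Tcap, the titin cap protein of the Z-disc, was at 0.64 ± 0.21 (limma adjusted p = 0.0446), and leaving out any array but control replicate 2 ended the call, at 0.47 to 0.71, as did the authors' values (0.43), normexp (0.52) and median scaling (0.25).

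**Figure D4:**
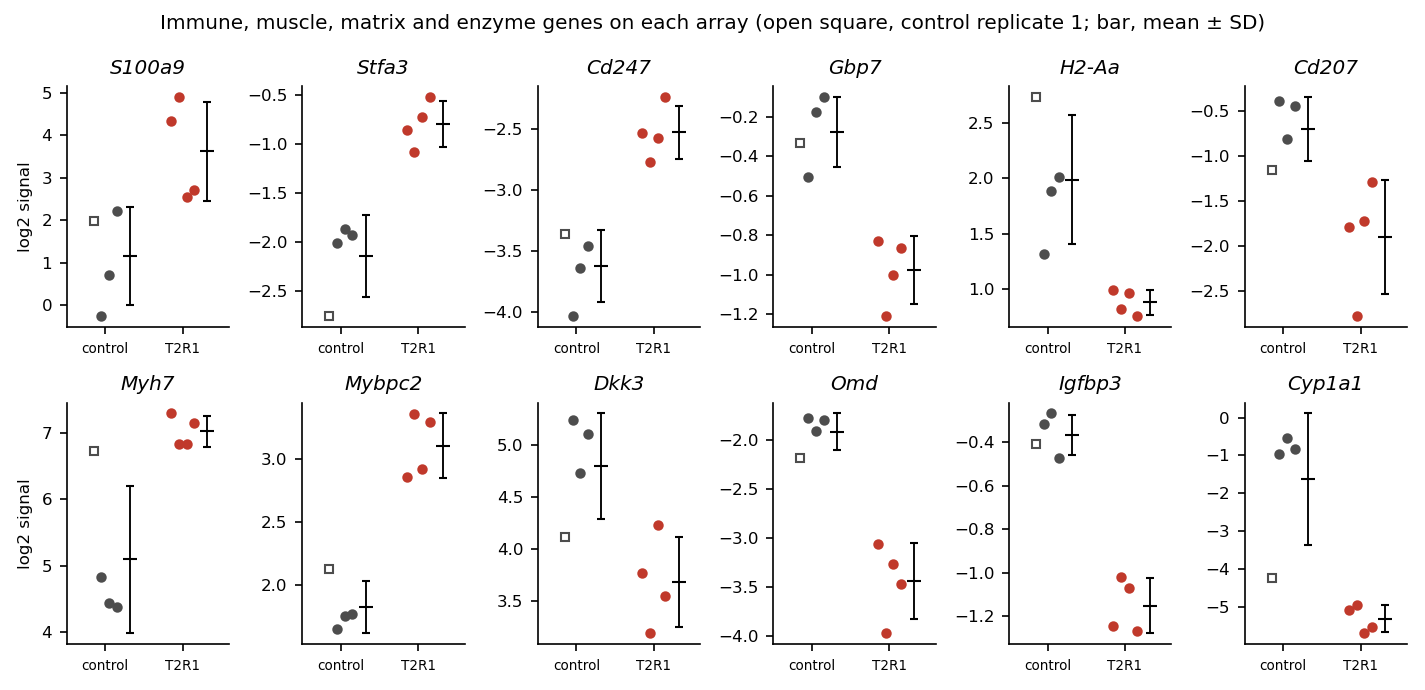
Log2 signal relative to the 75th percentile of each array (vertical axis) of 12 genes in control and T2R1 hearts, with 1 point per array, bars for mean ± SD and an open square for control replicate 1. S100a9, Stfa3, Cd247, Myh7 and Mybpc2 lie higher in T2R1 and Gbp7, H2-Aa, Cd207, Dkk3, Omd, Igfbp3 and Cyp1a1 lower, with overlap between groups for Dkk3 alone.

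Genes enriched in atrial muscle had a median of -0.67, and 4 of 14 were lower and 0 higher (28.6% called, against 18.4% of all features and 3.58% lower). Without control replicate 1 the median was -0.92 and 11 of 14 were lower, where 2123 of all 22631 features were lower. Relative to control replicates 2 to 4 the median level was -1.02 on control replicate 1 and -0.71, -1.16, -0.55 and -1.17 on T2R1 replicates 1 to 4. Their summed linear signal overlapped, from 1206 to 2122 over control and from 1213 to 1996 over T2R1 arrays. Dkk3, a secreted Wnt modulator, read 4.11, 5.24, 4.73 and 5.10 in control and 3.77, 3.2, 4.23 and 3.55 in T2R1. Control replicate 1 lay below T2R1 replicate 3, and the difference was -1.11 ± 0.26 (limma adjusted p = 0.00914). Pam, the enzyme that amidates peptide hormones and lies in atrial granule membranes, was the tightest of the list, with 3.2, 3.28, 3.33 and 3.26 in control and 2.69, 2.58, 2.76 and 2.39 in T2R1 (-0.67 ± 0.13, limma adjusted p = 0.00254). Sln (sarcolipin), the atrial inhibitor of the calcium pump, was at -0.86 ± 0.28 (limma adjusted p = 0.045) and passed without control replicate 1 or T2R1 replicate 3 but otherwise not, at -0.94 to -0.71. Clic6, a chloride channel protein, was at -1.76 ± 0.56 (limma adjusted p = 0.0403) and was lost without any array but control replicate 3 (-1.88 to -1.37), after normexp (-0.64) and after quantile normalization (-2.12), with 2 of 4 T2R1 arrays well above background. How much atrium each dissected heart held was not measured.

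Calcium handling and electrical genes had few calls. Of 20 calcium handling genes 0 were higher and 2 lower, Sln and Itpr1, the inositol trisphosphate receptor, at -0.37 ± 0.08 (limma adjusted p = 0.00732). Of 23 ion channel and gap junction genes 1 was higher and 2 lower. Kcne1l, a potassium channel subunit, read -2.01, -1.52, -2.11 and -1.86 in control and -0.98, -0.81, -0.77 and -0.69 in T2R1, higher without overlap by 1.06 ± 0.19 (limma adjusted p = 0.00168).

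Of 22 genes of adrenergic signalling, the receptors for catecholamines and their effectors, 0 were higher and 2 lower. Gnal, a stimulatory G protein subunit, was not well above background on any T2R1 array and was at least 1.46-fold lower (limma adjusted p = 0.00323). Such a bound sets the brighter group's mean against the dimmer group's mean after each dim value has been raised, where lower, to the lowest signal that counts as well above background on that array. Another probe represents Gnal when dim probes are kept, and its difference was 0.022. After normexp the difference of Gnal was -0.27 and did not pass. Grk3, a kinase that desensitises these receptors, was at -0.27 ± 0.09 (limma adjusted p = 0.047) and was lost without any array but control replicate 1, at -0.29 to -0.24. In the list of renin, angiotensin, endothelin and nitric oxide 2 of 16 were higher and 1 lower: Nos1, the neuronal nitric oxide synthase, at 0.87 ± 0.19 (limma adjusted p = 0.00703), Agt, angiotensinogen, at 0.60 ± 0.18 (limma adjusted p = 0.0347), and Gucy1a1, a subunit of the nitric oxide receptor, at -0.49 ± 0.16 (limma adjusted p = 0.0484). Agt was lost without control replicate 1 or 2 or T2R1 replicate 1, 3 or 4 (0.49 to 0.62), and Gucy1a1 without control replicate 2, 3 or 4 or T2R1 replicate 2 or 4 (-0.50 to -0.39). Median scaling ended the calls of Nos1 (0.49) and Agt (0.22), and quantile normalization those of Agt (0.46) and Gucy1a1 (-0.43). The share of this list called, 18.75%, is near the 18.4% of all features, and that of the adrenergic list was 9.09%.

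In the matrix the clearest changes were decreases of single genes. Omd (osteomodulin), a keratan sulfate proteoglycan (chr13:49687847-49687906, mm9), read -2.18, -1.78, -1.92 and -1.79 in control and -3.07, -3.97, -3.27 and -3.48 in T2R1. All T2R1 arrays were below all control arrays, by -1.53 ± 0.24 on average (limma adjusted p = 0.000864). Comp, a matrix protein of cartilage, tendon and scar, read 1.57, 2.11, 1.97 and 2.17 in control and 0.88, 0.82, 0.97 and 1.10 in T2R1, a difference of -1.01 ± 0.18 (limma adjusted p = 0.00176). Both calls held without each array. After normexp Omd was at -0.64, and with the authors' values at -1.02.

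Collagens depended on control replicate 1. Of 18 tested, 2 were higher and 0 lower with a median of 0.54, and without that array 13 were higher with a median of 0.80. The share called was 11.1% with all arrays, against 18.4% of all features. Without that array 3392 of all 22631 features were called higher. Col8a2, a short-chain collagen, rose by 0.93 ± 0.18 (limma adjusted p = 0.00288), but did not pass after quantile normalization (0.58) or with median scaling (0.54), and was 0.45 after normexp and 0.39 with the authors' values. Col6a2, of the pericellular network, rose by 0.71 ± 0.19 (limma adjusted p = 0.0178), a call lost without control replicate 4 or T2R1 replicate 3 (0.65) and with median scaling (0.32). Col1a1, of the main fibrillar collagen, read 5.71 on control replicate 1, 3.30, 3.31 and 3.38 on the other control arrays, and 4.58, 4.92, 4.80 and 4.61 in T2R1. The T2R1 arrays lay between control replicate 1 and the rest, with a difference of 0.80 ± 0.42 (limma adjusted p = 0.214) and of 1.40 without that array. Postn (periostin), a matricellular protein of activated fibroblasts, read 4.71, 0.95, 1.18 and 1.08 in control and 2.77, 3.46, 3.04 and 2.83 in T2R1, the same arrangement, at 1.05 ± 0.64 (limma adjusted p = 0.295) and at 1.96 without control replicate 1.

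Of 23 genes of collagen processing and matricellular proteins 1 was higher and 1 lower, and 12 higher and 0 lower without control replicate 1. The higher one was P4ha3, a collagen prolyl hydroxylase subunit, at 0.73 ± 0.19 (limma adjusted p = 0.0145), which did not pass without T2R1 replicate 3 or 4 (0.62 and 0.63) or with median scaling (0.35). Of 17 matrix proteases and inhibitors Mmp12, the macrophage elastase, was higher at 0.84 ± 0.20 (limma adjusted p = 0.0112), and this call was lost under each of the 4 other scalings, at 0.092 to 0.46.

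Of 30 genes of TGF-beta and Wnt signalling 1 was higher and 6 lower, or 23.3% called against 18.4% of all features (3.58% lower). Besides Dkk3, Frat1, which inhibits GSK3, was at -1.06 ± 0.29 (limma adjusted p = 0.0192), lost without control replicate 3 or 4 or T2R1 replicate 2 or 4 (-1.0 to -0.87). Fzd7, a Wnt receptor, was at -0.72 ± 0.20 (limma adjusted p = 0.023), lost without T2R1 replicate 2 or 3 (-0.70 to -0.58), and the ligand Wnt4 was at 0.64 ± 0.19 (limma adjusted p = 0.0335), kept only without control replicate 1 or T2R1 replicate 1 and otherwise 0.53 to 0.63. Wnt4 did not pass after quantile normalization (0.48), with the authors' values (0.38) or with median scaling (0.25), and Fzd7 was -0.42 after normexp. Outside the list, the secreted Wnt inhibitor Wif1 read -0.02, 0.70, 0.55 and 0.78 in control and -0.54, -0.60, -0.36 and -0.61 in T2R1, a difference of -1.03 ± 0.20 (limma adjusted p = 0.00308). Sox4, a developmental transcription factor, read 1.73, 2.39, 2.50 and 2.15 in control and 1.04, 1.10, 1.37 and 1.18 in T2R1, a difference of -1.02 ± 0.17 (limma adjusted p = 0.00108). For both genes the groups did not overlap.

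Genes of cell division turned on 1 control heart. In the list of mitosis and spindle genes limma called 0 of 19, and without control replicate 1 it called 17 higher, with the median moving from 0.62 to 1.61. The median level of the list was 4.08 above that of control replicates 2 to 4 on control replicate 1, and 0.84, 2.17, 1.68 and 1.79 above it on T2R1 replicates 1 to 4. Mki67, the marker of cycling cells, read 2.64, -0.79, -1.29 and -1.45 in control and -0.44, 0.99, 0.45 and 0.73 in T2R1. The highest of the 8 values was a control, and the difference was 0.65 ± 0.71 (limma adjusted p = 0.58) with all arrays and 1.61 without control replicate 1. DNA replication genes had 0 calls of 22 by limma and 10 without that array.

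Of 18 endothelial markers 0 were higher and 4 lower, or 22.2% called against 18.4% of all features (3.58% lower). Without control replicate 1, 8 were lower, where 2123 of all 22631 features were lower. Sox18, a transcription factor of vessel and lymphatic development, was at -0.55 ± 0.13 (limma adjusted p = 0.00807) and held without each array. The tight junction protein Cldn5 (-0.69 ± 0.19, limma adjusted p = 0.0224), the apelin receptor Aplnr (-0.70 ± 0.21, limma adjusted p = 0.0308) and the vessel-secreted Egfl7 (-0.37 ± 0.12, limma adjusted p = 0.0398) were also lower. Cldn5 was lost without control replicate 3 or 4 or T2R1 replicate 1 or 3 (-0.69 to -0.52), Aplnr without control replicate 1 or 3 or T2R1 replicate 1, 2 or 3 (-0.67 to -0.58), and Egfl7 without any array but control replicate 1 (-0.40 to -0.29).

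In the list of IGF, insulin and imprinted growth genes 1 of 23 was higher and 2 were lower. Igfbp3, a carrier that binds IGFs in plasma and tissue, read -0.41, -0.32, -0.27 and -0.48 in control and -1.25, -1.02, -1.07 and -1.27 in T2R1. The spread within each group was small beside the difference of -0.78 ± 0.10 (limma adjusted p = 0.000337). Plagl1 (ZAC1), an imprinted growth-restraining zinc finger gene, was lower by -0.62 ± 0.12 (limma adjusted p = 0.00278), and Igfbp2, another carrier, higher by 1.07 ± 0.30 (limma adjusted p = 0.0229). Igfbp2 did not pass without control replicate 2 or 3 or T2R1 replicate 2, 3 or 4 (0.81 to 1.06), nor under any of the 4 other scalings (0.30 to 0.70).

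**Figure D5:**
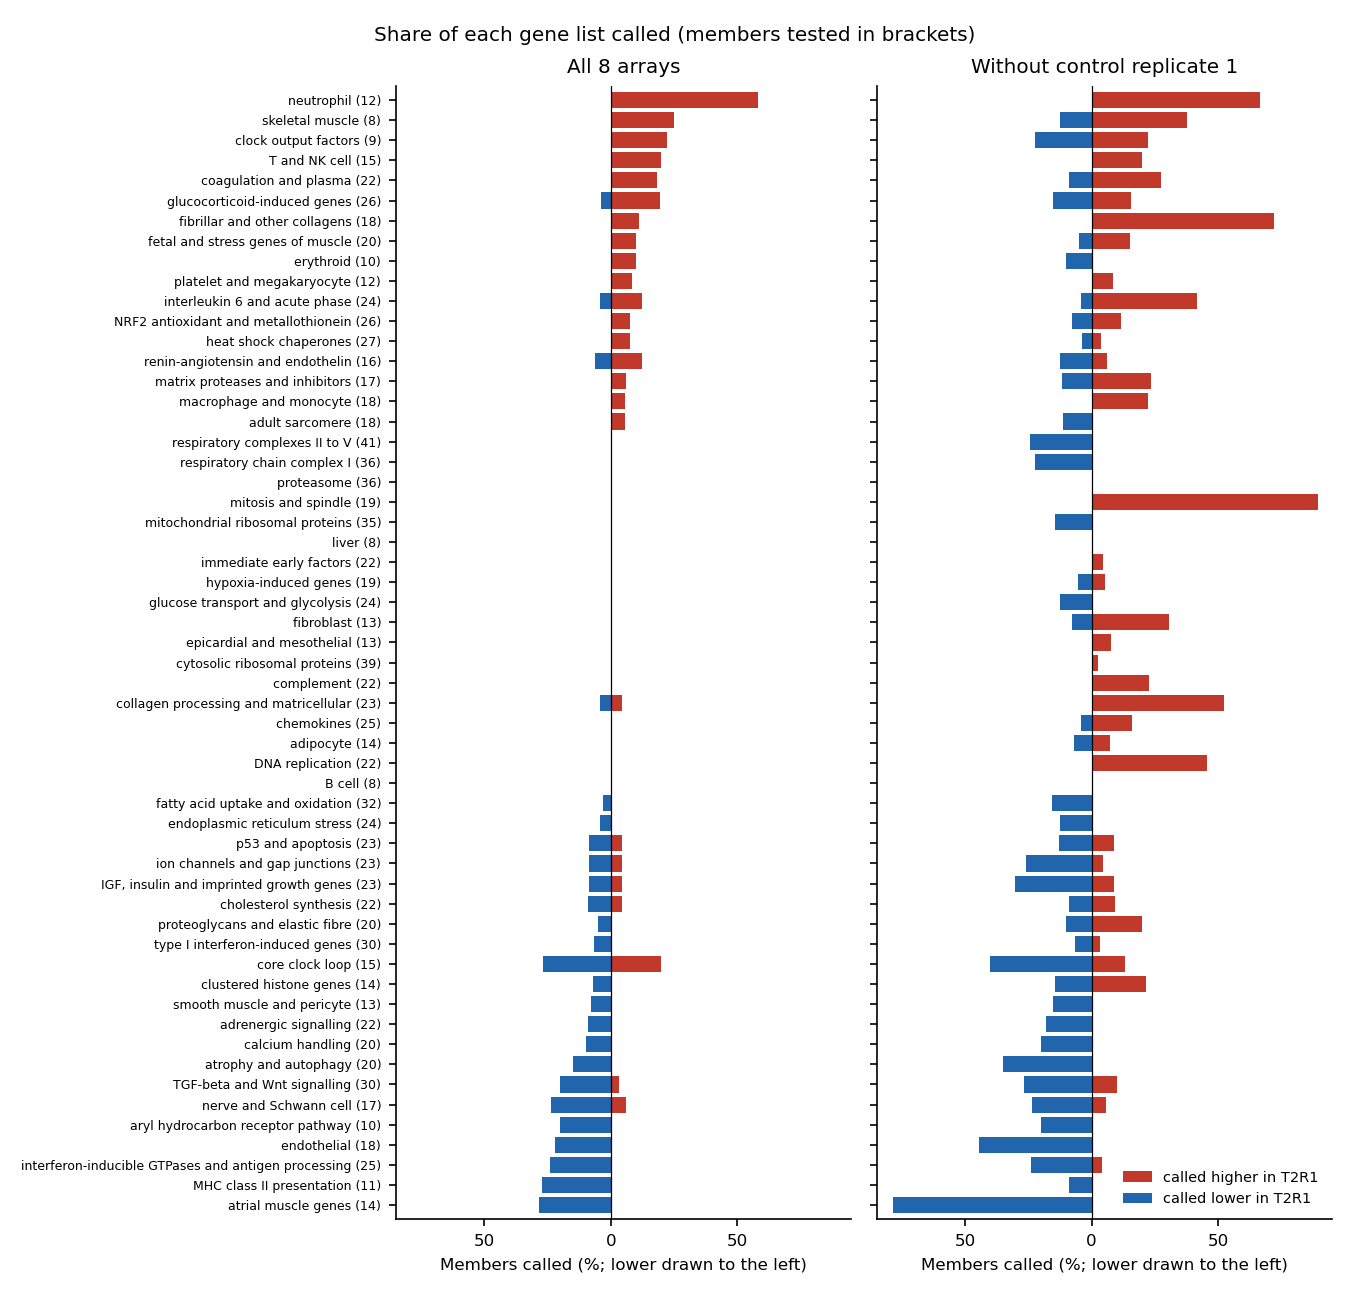
Percent of tested members called higher or lower in T2R1 (horizontal axis) for each gene list with at least 8 tested members (vertical axis), with all 8 arrays and without control replicate 1. Mitosis genes go from 0 of 19 to 17 of 19 and collagens from 2 of 18 to 13 of 18 called higher when that array is left out.

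Genes of energy metabolism and protein turnover were not called, with the exception of a few. By limma there were 0 calls among 36 genes of complex I, 41 of complexes II to V, 24 of glucose transport and glycolysis, 39 cytosolic ribosomal proteins, 35 mitochondrial ribosomal proteins and 36 proteasome subunits. Without control replicate 1 lower calls numbered 8 in complex I, 10 in complexes II to V, 3 in glycolysis and 5 in the mitochondrial ribosome. Over all features 2123 of 22631 were called lower in that fit. Of 32 genes of fatty acid uptake and oxidation 1 was lower, Acsm3, a medium-chain acyl-CoA synthetase, at -2.13 ± 0.61 (limma adjusted p = 0.0257), and it was lost without control replicate 1 or 4 or T2R1 replicate 4 (-1.93 to -1.66) and after quantile normalization (-2.43). Ucp3, the muscle uncoupling protein, was at -0.06 ± 0.09 (limma adjusted p = 0.702).

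Of 20 atrophy and autophagy genes 3 were lower (15% called, against 18.4% of all features and 3.58% lower). Fbxo32 (atrogin-1), the muscle ubiquitin ligase, was at -0.75 ± 0.20 (limma adjusted p = 0.0178) and was lost without control replicate 3 or 4 or T2R1 replicate 4, at -0.68 to -0.63. Its activator Foxo1 was at -0.40 and the co-regulator Cited2 at -0.48. The same 3 arrays ended the call of Cited2 (-0.43 to -0.36), and any array but control replicate 1 or T2R1 replicate 3 that of Foxo1 (-0.41 to -0.32). Both calls were also lost with the authors' values (-0.24 and -0.25), after normexp (-0.29 and -0.31) and after quantile normalization (-0.43 and -0.34). In cholesterol synthesis 1 of 22 was higher and 2 lower. Insig1, which retains the sterol sensor in the endoplasmic reticulum, read -1.46, -2.15, -2.04 and -1.52 in control and -2.93, -2.50, -3.03 and -3.08 in T2R1, a difference of -1.09 ± 0.29 (limma adjusted p = 0.0171), and -1.03 without T2R1 replicate 4, where it did not pass. After normexp it was -0.52.

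Among p53 and apoptosis genes 1 of 23 was higher and 2 lower, with Bbc3 (PUMA), a pro-apoptotic BH3 protein, at -0.71 ± 0.15 (limma adjusted p = 0.00442) and Trp53inp1 at -0.68, lost without control replicate 4 or T2R1 replicate 2 or 4 (-0.62), with the authors' values (-0.51) and after normexp (-0.47). Of 27 heat shock chaperones 2 were higher. Hspb7, the cardiovascular small heat shock protein, was at 0.64 ± 0.17 (limma adjusted p = 0.0174), and at 0.61 without T2R1 replicate 4 and 0.25 with median scaling, where it did not pass. Hspb6 (HSP20) was at 0.36 ± 0.11 (limma adjusted p = 0.0274), and turned to -0.023 with median scaling. It was lost without control replicate 1 or 4 or T2R1 replicate 2, 3 or 4, at 0.31 to 0.36, with the authors' values (0.27) and after normexp (0.29). The inducible Hspa1a was at 1.19 ± 0.71 (limma adjusted p = 0.278). Of 24 endoplasmic reticulum stress genes the lectin chaperone Canx was lower, at -0.45 ± 0.11 (limma adjusted p = 0.0106).

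Cyp1a1, the oxidising enzyme that the aryl hydrocarbon receptor induces, showed one of the largest decreases. Its probe (chr9:57551535-57551594, mm9) read -4.23 on control replicate 1, -0.95, -0.53 and -0.82 on the other control arrays, and -5.09, -4.94, -5.69 and -5.53 in T2R1. Control replicate 1 was far closer to the T2R1 arrays than to its own group but did not overlap them. No T2R1 array was well above background, and the level was at least 6.94-fold lower (limma adjusted p = 0.00638). After normexp the difference was -1.34 and did not pass, and with the authors' values it was -2.0. Cyp1b1, a second target of that receptor, was lower by -0.84 ± 0.17 (limma adjusted p = 0.0043) and held throughout the alternatives. Both calls came from the 10 tested genes of that pathway, a share of 20% that is near the 18.4% of all features.

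Markers of nerve and Schwann cells gave 1 higher and 4 lower of 17 (29.4% called, against 18.4% of all features), with a median of -0.40. Without control replicate 1 the counts were also 1 and 4, and the median was -0.17. All 17 were well above background on all control arrays and 13 on all T2R1 arrays. A marker kept only through control would be lower in T2R1, so the count may be partly set by the filter. The summed linear signal of these markers, relative to the 75th percentile, went the other way, from 41.7 to 48.1 over the control arrays and from 47.3 to 52.7 over the T2R1 arrays. The heavier neurofilament genes Nefm and Nefh did not pass the filter on dim probes. Nefl, the neurofilament light chain, read -2.32, -2.83, -3.17 and -2.31 in control and -5.06, -5.14, -5.87 and -5.66 in T2R1. It was well above background on no T2R1 array and, scaled to the 75th percentile, was at least 3.41-fold lower (limma adjusted p = 0.00148). After normexp the difference of Nefl was -0.69 and with the authors' values -1.15, and those of Prph were -0.73 and -1.13, all past the threshold. Prph (peripherin), the neurofilament of peripheral neurons, was at -2.03 ± 0.53 (limma adjusted p = 0.0157), with 2 of 4 T2R1 arrays well above background, and did not pass without T2R1 replicate 3 (-1.85). Nsg2, a vesicle protein of neurons, was at -2.29 ± 0.74 (limma adjusted p = 0.0453), lost without any array but T2R1 replicate 1, at -2.43 to -2.08, and after normexp (-0.76) or quantile normalization (-2.62). Snap25, of the synaptic fusion complex, was higher by 0.50 ± 0.14 (limma adjusted p = 0.0228), and at 0.48 to 0.49 without T2R1 replicate 2, 3 or 4 and 0.11 with median scaling, where it did not pass.

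Of 22 coagulation and plasma protein genes, most of them liver products, 4 were higher and 0 lower, a share of 18.2% that is near the 18.4% of all features. Factor IX (F9) was higher by 0.79 ± 0.13 (limma adjusted p = 0.00136) and held without each array, and factor VII (F7) by 0.68 ± 0.13 (limma adjusted p = 0.00318), which was lost under the 4 other scalings, at 0.26 to 0.36. The median level of liver markers relative to control replicates 2 to 4 was 1.81, 1.27, -0.07 and 0.53 on T2R1 replicates 1 to 4 and 1.48 on control replicate 1. The part of that level in these values was not tested.

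Among blood cells, the platelet receptor subunit Gp1bb was higher by 0.95 ± 0.29 (limma adjusted p = 0.0361), kept without control replicate 2 or T2R1 replicate 3 but otherwise 0.77 to 0.99 and not passing. Its call was also lost under the 4 other scalings, at 0.56 to 0.77. The erythrocyte band 3 gene Slc4a1 was higher by 1.73 ± 0.55 (limma adjusted p = 0.0429), a call lost whichever of the 8 arrays was left out, at 1.61 to 1.81, and under the 4 other scalings, at 1.35 to 1.72. Adipocyte markers had a median of -1.5 with 0 calls of 14 by limma. Their level relative to control replicates 2 to 4 was 1.40, -0.60, -0.43 and 1.16 on the control arrays and -0.27, -0.45, -0.41 and -2.78 on the T2R1 arrays. The spread between hearts was thus wide for fat, with control replicates 1 and 4 high and T2R1 replicate 4 low. Of the 2 genes tested from the thymocyte list Cd1d1 was lower, at -1.25 ± 0.36 (limma adjusted p = 0.0256), and at -1.15 to -1.02 without control replicate 1 or 4 or T2R1 replicate 4, where it did not pass. A list of 2 genes is no measure of that cell type.

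Odorant and vomeronasal receptors, and keratins with keratin-associated proteins, were often called higher. These families were set apart after their values had been seen. Of 1102 odorant receptor genes on the array 204 passed the filter on dim probes, and 134 of these were higher and 0 lower, with a median of 0.95. Of the 204, 148 were in the dimmest bin of features. The same 204 genes had a median of 0.72 in T1R1 and of -0.17 in T3R1 against the same controls, and of 0.86 in T2R1 without control replicate 1. Higher calls numbered 73 after quantile normalization, 66 after normexp, 78 with the authors' values and 83 with median scaling, beside 1, 0, 2 and 2 lower. A gene that passed the filter only through T2R1 had to be higher there, so the count is no measure of the family.

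Vomeronasal receptors gave 26 higher of 46 that passed (257 on the array), with a median of 0.94, and between 6 and 15 higher under the other scalings. Keratins gave 28 higher of 48 that passed, with a median of 0.61, and between 14 and 19 under the other scalings. This family includes Krt8, Krt18 and Krt19, which are also in the list of epicardial and mesothelial markers, where 0 of 13 were called by limma. Olfr700 rose by 1.93 ± 0.33 (limma adjusted p = 0.00139), Olfr910 by 1.73 ± 0.26 (limma adjusted p = 0.000733) and Vmn1r52 by 1.54 ± 0.28 (limma adjusted p = 0.00204). Olfr822 was well above background on no control array and was at least 2.90-fold higher (limma adjusted p = 0.00157), but did not pass after normexp (log2 0.53). After normexp and with the authors' values Olfr910 was at 0.69 and 0.66 and Vmn1r52 at 0.73 and 0.68. Receptors of this kind belong to large families of similar sequence, so that a probe may read more than 1 member.

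Of the genes well above background on all 8 arrays whose groups did not overlap, Bhlha9 had the largest rise. Bhlha9 is a basic helix-loop-helix factor of limb development. It read -3.10, -2.22, -3.22 and -3.47 in control and -1.15, -0.56, -0.23 and -0.21 in T2R1. The groups lay apart, at 5.52-fold (log2 2.46 ± 0.39, limma adjusted p = 0.000886), and the call held without each array, at 1.37 after normexp and 1.53 with the authors' values. Pip5k1a, a phosphoinositide kinase, was at 1.75 ± 0.48 (limma adjusted p = 0.0201), but its 2 other probes were not called, and the call was lost without control replicate 2 or 3 or T2R1 replicate 2 or 4, at 1.52 to 1.66. Among those well above background on no control array, Gm11567, Olfr900, Gm10797, Gm839 and the lens protein Crygs were at least 2.78, 2.55, 2.17, 2.11 and 2.09-fold higher. The first 4 did not pass after normexp (log2 0.26 to 0.46), after quantile normalization (0.97 to 2.07) or with the authors' values (0.23 to 0.52), nor Crygs after normexp (0.35). Without single arrays Gm10797 was lost for control replicate 4 or T2R1 replicate 3 or 4 (1.23 to 1.34), Gm839 for T2R1 replicate 4 (1.96) and Crygs for T2R1 replicate 3 or 4 (1.31 to 1.36). AY074887 was higher by 1.52, with T2R1 replicate 4 at 0.50 and the other 3 between -1.82 and -1.45, and did not pass after quantile normalization (1.30).

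Among the lowest genes were Lonrf3, a RING finger protein, at -1.38 ± 0.23 (limma adjusted p = 0.00124), and Ypel2 at -1.21 ± 0.23 (limma adjusted p = 0.00238). Stmn3, a neuronal regulator of microtubules, was at -1.09 ± 0.34 (limma adjusted p = 0.0366), and did not pass without control replicate 2 or 4 or T2R1 replicate 2, 3 or 4, at -1.15 to -0.91, or after normexp (-0.54). Gm3877, Zcchc12 and Zfhx4, a homeodomain factor, were well above background on no T2R1 array and were at least 1.85, 1.56 and 1.41-fold lower. None of these 3 passed after normexp (log2 -0.33 to -0.23), and Zfhx4 did not pass without T2R1 replicate 3 (-1.07).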

How the data were processed

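Messenger and long noncoding RNA of 8 hearts, 4 T2R1 and 4 control, were measured on 1-colour Agilent arrays, and the 8 arrays of T1R1 and T3R1 entered the same fit. Per the file headers, the processed intensity was made with Feature Extraction 10.7.3.1, and the mean spot intensity and median background are uncorrected. The authors' deposited table is in log2, equalised between arrays by quantiles; their ranks within an array equal those of the mean spot intensity (rank correlation 1.0), their median is 6.1, and their method was not given in the sources used here.

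For each array the log2 of the processed intensity minus its 75th percentile was averaged over spots of a probe, without control spots and spots that the scanner software marked as outliers. A probe was kept where some group had it well above background on each of its 4 arrays (31390 of 55681), and the probe of highest mean stood for each name. That gave 22631 features (16300 genes, 3038 noncoding regions, 3293 unnamed) with 102 missing values. Names came from RefSeq through an accession for 26762 probes, a symbol for 3819 and a synonym for 639, and otherwise from the array files. The 4 group means were fitted in limma 3.58.1 under R 4.3.3 (12 residual and 2.26 prior degrees of freedom), with two-sided p-values adjusted by Benjamini-Hochberg over all features and a threshold of 0.05. The script was tested on simulated data. Slide could not be fitted as a block, since it coincides with the groups.

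The members and gene lists were chosen with earlier results of these data known. Genes are named if called, without overlap of the groups and also without control replicate 1: the 15 highest and 15 lowest, and the 6 largest bounds each way. To these come up to 4 members of each list by smallest p, 22 set genes (Npas2 among them passed no filter) and the 4 highest and lowest noncoding probes; some members of lists are counted but not reported here by name. Promoters are those of the RefSeq table. Alternatives were normexp (offset 50), quantile and median scaling, the authors' values, filters, array weights, thresholds, the replicate block and leaving out each array; combinations of a scaling with control replicate 1 left out were added after the data had been seen.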

Additional observations from a re-analysis of the deposited data

Results flagged for a closer look

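In 269 groups of 4 arrays tested for a single array far from the others, 20 were found, where chance flags about 1 in 20 groups. Of these, 11 fell on control replicate 1. It was the highest control array for Col1a1 (5.71, others 3.30 to 3.38), Postn (4.71, others 0.95 to 1.18), Col6a2 (2.32), Lcn2 (3.29), Mki67 (2.64) and Fzd7 (-1.19, others -1.94 to -1.81). It was the lowest for Cyp1a1 (-4.23, others -0.95 to -0.53), Cry1 (-2.89), Plagl1 (1.75, others 1.97 to 2.00), Snap25 (3.82, others 4.32 to 4.39) and Stfa3 (-2.76). The array that differs is thus the same for matrix, cell division and acute phase genes.

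Among the T2R1 arrays, replicate 1 was lowest for Cd74 (2.79, others 2.85 to 2.86) and highest for Iigp1 (0.15, others -0.12 to -0.09). Replicate 3 was lowest for Bbc3 (-0.77, others -0.25 to -0.19), Canx (4.65, others 5.07 to 5.13) and the noncoding region chr4:129497990-129515290_F (-2.09, others -2.03 to -2.02). Replicate 4 was highest for AY074887 (0.5), Aplnr (-0.24, others -0.85 to -0.75) and Sox18 (2.18, others 1.87 to 1.91), and lowest for Plagl1 (1.14, others 1.34 to 1.37). The cause was not tested.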

How the results depend on the processing

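Of 122 named features past the threshold, 39 passed in every alternative run and 64 without each array in turn. The count of 4166 calls ranged from 2803 to 5515 without single arrays, that of 3355 higher calls from 2383 to 3392, and that of 811 lower calls from 420 (without T2R1 replicate 4) to 2123 (without control replicate 1). Total, higher and lower calls were 1944, 1750 and 194 at an adjusted p under 0.01 and 1274, 1228 and 46 with a difference beyond 1. They were 8780, 5216 and 3564 with array weights, 9102, 1385 and 7717 with median scaling, and 2597, 1764 and 833 after normexp. Higher calls were 2153 with the authors' values, 1850 after quantile normalization and 2183 of 17945 features on all arrays above background. Lower calls were 1634 with the authors' values, 464 of 34787 features with no filter, and 516 with only the 8 arrays. With control replicate 1 also left out, higher calls were 1966 (normexp) and 1917 (quantile), and lower calls 2379 (normexp), 1921 (quantile) and 2644 (authors' values). The causes were not tested.

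The sign turned for genes near 0. Fkbp5 was 0.044, 0.0099 and 0.014 with the authors' values, normexp and quantile without control replicate 1. Tsc22d3 was 0.049 with the authors' values, 0.014 after normexp and -0.17 to 0.14 without single arrays. Pdk4 was -0.58 to 0.11 without single arrays. Nppa was -0.058 with the authors' values, -0.27 with median scaling, -0.020 after quantile normalization and -0.025 to 0.22 without single arrays. Myh6 was -0.11 with median scaling and -0.061 to 0.48 without single arrays. Ucp3 was 0.0062 with the authors' values and -0.13 to 0.00049 without single arrays. Gnal was 0.022 with no filter and Hspb6 -0.023 with median scaling.

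Replicate numbers name the hearts only: deviations of arrays with the same number correlated at -0.151, -0.324, 0.169 and -0.161, and the fit with the replicate number as a block called 4093 features, 3365 higher and 728 lower. The slide as a block was not run, because it could not be fitted beside the groups. Dim probes limit the precision, since 31390 of 55681 probes were kept.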
